A study of Mus musculus with 12 samples.

Results

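Complement is a set of plasma and tissue proteins that tag and lyse targets, and 7 of its genes, C3, C4b, C2, Cfb, C1ra, C1s1 and Serping1, were followed by their symbols among the 53341 genes of the deposited table. All 7 were found once each, and all 7 were among the 18139 genes kept by a filter on low values, which asked for 3 of 12 libraries with a normalized count of 10 or more. The samples were cultured mouse fibroblast-like synoviocytes, connective tissue cells that line the joint, from mice labelled SoxC, the transcription factor group of Sox4, Sox11 and Sox12. The series asks which of the genes that tumour necrosis factor (TNF) regulates depend on SOXC. Each of 4 groups held 3 libraries of poly(A) RNA. SoxC_KO_TNF cells received the adenovirus Ade5CMV-Cre, which makes Cre recombinase from the CMV promoter, and recombinant human TNF at 10 ng/mL for 16 h. SoxC_KO cells received Ade5CMV-Cre without TNF. The control_TNF cells received Ade5CMV-eGFP, which makes a green fluorescent protein from the same promoter, and the same TNF. The control cells received Ade5CMV-eGFP alone, so that the cells of every group carried an adenovirus. The sources used here do not say which part of each Sox gene Cre removed.

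Complement is started by the classical pathway, in which C1r and then C1s of the C1 complex are activated and C1s cleaves C4 and C2, by the lectin pathway, in which MASP proteases do the same, or by the alternative pathway, in which C3 and factor B form the cleaving enzyme. All routes meet at C3, whose fragments coat targets and draw in leukocytes. C1 inhibitor, the product of Serping1, blocks C1r, C1s and MASP proteases. The liver makes most of the plasma proteins, but fibroblasts, synoviocytes among them, also transcribe several of these genes, and TNF is a known inducer of C3 and factor B in many cells.

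Normalized totals were 19.6 to 23.1 M per library, from a rough estimate of 8.14 to 13.7 M read pairs, and no 2 libraries held identical values. Sox4 had 1020, 1086 and 601 normalized counts in SoxC_KO_TNF cells and 1432, 1433 and 548 in SoxC_KO cells, against 1697, 3646 and 1625 in control_TNF cells and 4238, 4143 and 1857 in control cells. Every knockout library was thus below every control library, with Sox4 RNA still present. Sox11 spanned 26.8 to 175 in the 6 knockout libraries and 138 to 272 in the 6 control libraries, and Sox12 spanned 86.5 to 259 in the knockout and 162 to 352 in the control libraries, so these ranges overlapped. All 10 fibroblast markers were present. The libraries numbered 3 stood apart on the first principal component, which held 51.6% of the variance. Liver transcripts were present in SoxC_KO_TNF replicate 1 and control_TNF replicate 2, where albumin (Alb) had 2690 and 382 normalized counts. No other library exceeded 7.54 for Alb. Of the skeletal muscle markers, Myh4 had 277 and 188 normalized counts in SoxC_KO_TNF replicate 1 and SoxC_KO replicate 1, and Ckm 95.3 and 59.2. Elsewhere Myh4 was at 13.3 or less and Ckm at 4.45 or less. Myh1 was also highest in these libraries, while Acta1 was highest in SoxC_KO replicate 3, at 1146. The part of muscle transcripts in the values below was not tested.

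The 7 genes spanned a wide range of levels. Per kb of exon, the mean normalized count over 12 libraries was 7688 for Serping1, 2590 for C1s1, 1609 for C3, 871 for C1ra, 799 for Cfb, 106 for C4b and 58.4 for C2. Serping1 ranked 115th per kb in the table, and its lowest library stood above the highest library of C1s1. The lowest library of Cfb likewise stood above the highest of C4b, and for the other pairs of neighbours in this order the ranges over the 12 libraries overlapped. C3 spanned 896 to 2562 per kb and C1s1 spanned 2069 to 3523, while C4b spanned 59.6 to 143 and C2 spanned 40.8 to 79.2. The places of Cfb and C2 in this order can depend on how reads shared with an overlapping gene, Gm20547, were assigned.

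**Figure D1:**
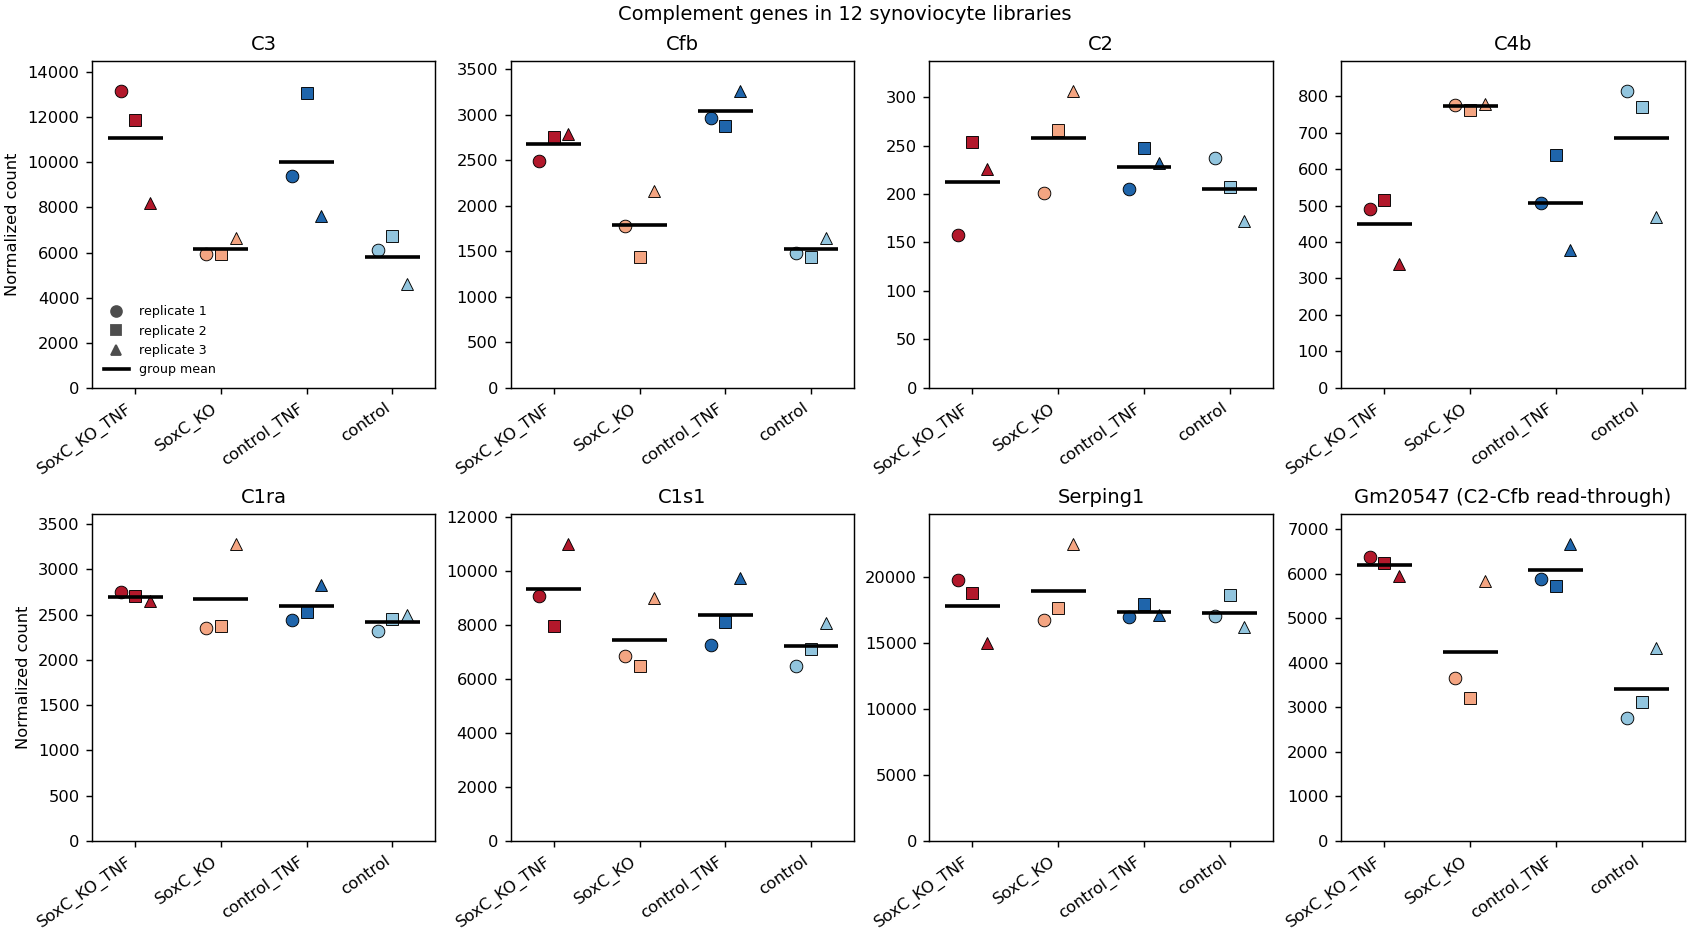
Normalized counts (vertical axes, from 0) of the 7 complement genes and of the read-through gene Gm20547 in each of 12 libraries, by group, with the mean of 3 libraries as a bar. C3 and Cfb lie higher in both groups given TNF, C4b lies lower, and Serping1 stays between 14966 and 22528.

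With TNF, averaged over knockout and control cells, Cfb rose 1.74-fold. C3 was 1.73-fold higher and C4b stood at 0.653 of its level without TNF, both short of the threshold in a limma fit without a replicate block and past it in the same fit with the block. C2, C1ra, C1s1 and Serping1 did not pass in either. A limma model with 1 mean per group called 1 of the 7 genes, Cfb, on the average TNF effect at an adjusted p under 0.05, where 1.17% of all genes tested were called in either direction and 0.877% as higher. In knockout cells alone it called 0 of 7 (background 0.292%; 3 of 7 at an unadjusted p under 0.05, against 7.38% of all genes), and in control cells alone 0 of 7 (background 0.32%; 2 of 7 unadjusted, against 4.21% of all genes). With the replicate number as a block, limma called 3 of 7 on the average, C3, Cfb and C4b, where 5.19% of all genes were called. With the block it called 3 of 7 in knockout cells, the same 3 genes (background 2.78%), and 1 of 7 in control cells, Cfb (background 1.71%). Without the libraries with liver transcripts, limma with the block called 0 of 7 in knockout cells (background 0.832%), with adjusted p of 0.171 for C3, 0.149 for C4b and 0.156 for Cfb, and the same genes as before in control cells and on the average. The median log2 change of the 7 genes on the average was 0.07, against -0.001 over all genes tested. In bulk RNA, fewer cells that express a gene and less RNA per cell cannot be told apart.

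C3 (ENSMUSG00000024164, mm10 chr17:57203970-57228136, minus strand) encodes the protein on which all complement routes converge. It had 13176, 11877 and 8186 normalized counts in SoxC_KO_TNF cells, against 5915, 5952 and 6633 in SoxC_KO cells. It had 9380, 13056 and 7640 in control_TNF cells, against 6105, 6741 and 4610 in control cells. Every library given TNF was higher than every library without it, in both genotypes. The means were 11080 ± 2589 in SoxC_KO_TNF cells, 6166 ± 404 in SoxC_KO cells, 10030 ± 2765 in control_TNF cells and 5818 ± 1094 in control cells (SD, n = 3 each). The log2 change on the average was 0.79 (SE 0.17, 95% interval 0.41 to 1.18), with a limma adjusted p of 0.0607 without the block and 0.00256 with it. Leaving out control_TNF replicate 3 or SoxC_KO_TNF replicate 3 brought the limma adjusted p without the block to 0.0491 and 0.0406. With any other single library left out it was 0.0677 to 0.162. Scaling all libraries to 1 normalized total brought it to 0.0373, while quantile normalisation gave 0.0724 and no filter on low values 0.139. Of all genes tested, 6.43% were higher without overlap in knockout cells and 4.6% in control cells, and C3 and Cfb were the members among them in each genotype. The highest C3 values of the series, 13176 and 13056, were in SoxC_KO_TNF replicate 1 and control_TNF replicate 2, the libraries with liver transcripts. Alb had 2690 and 382 normalized counts there. SoxC_KO_TNF replicate 2, with Alb at 3.87, had 11877 for C3. The part of the liver transcripts in the C3 values was not tested. Without the 2 libraries with liver transcripts the log2 change was 0.62 (limma adjusted p = 0.277 without the block), and with the block 0.66 (limma adjusted p = 0.0251).

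The promoter windows that RefSeq gives for 3 of the 7 genes, 250 bases before to 50 after a transcription start in GRCm38.p6, are shown because TNF acts on many promoters through kappaB sites and the series is about a SOX factor. Both strands were searched, so that a match can read as its reverse complement, for the kappaB consensus, the interferon element GAAANNGAAA, the STAT site TTCNNNGAA, the SOX motifs AACAAAG and AACAATG, the C/EBP site TTGCNNAA and the TATA box TATAAA. Capitals mark the matches. The windows are those of C3 (chr17:57228087-57228386, minus strand), C1ra (chr6:124512371-124512670, plus strand, with a start inside the annotated gene) and C1s1 (chr6:124542310-124542609, minus strand, the 1 of its 2 windows that held a match).
C3: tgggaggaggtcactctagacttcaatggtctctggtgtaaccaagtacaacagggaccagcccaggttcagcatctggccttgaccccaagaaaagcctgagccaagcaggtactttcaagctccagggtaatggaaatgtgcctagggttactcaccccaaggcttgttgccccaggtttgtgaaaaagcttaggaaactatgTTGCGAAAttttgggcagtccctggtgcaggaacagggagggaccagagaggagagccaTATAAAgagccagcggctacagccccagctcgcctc
C1ra: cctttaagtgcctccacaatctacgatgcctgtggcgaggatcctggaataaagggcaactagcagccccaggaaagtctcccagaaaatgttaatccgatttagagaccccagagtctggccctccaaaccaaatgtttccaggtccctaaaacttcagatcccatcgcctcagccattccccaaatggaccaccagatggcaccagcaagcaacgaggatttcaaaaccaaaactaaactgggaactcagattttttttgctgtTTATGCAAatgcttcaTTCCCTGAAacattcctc
C1s1: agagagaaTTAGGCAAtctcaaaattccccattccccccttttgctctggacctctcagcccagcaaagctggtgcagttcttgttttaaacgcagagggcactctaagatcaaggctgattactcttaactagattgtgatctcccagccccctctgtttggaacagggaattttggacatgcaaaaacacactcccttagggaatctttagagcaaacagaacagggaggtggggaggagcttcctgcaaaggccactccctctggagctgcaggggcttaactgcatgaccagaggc
The C3 window held a C/EBP match starting 45 bases before the start and a TATA match 14 bases after it. The C1ra window held a C/EBP match 16 bases and a STAT match 32 bases after the start, and the C1s1 window a C/EBP match 242 bases before it. The other C1s1 window (chr6:124542272-124542571, minus strand) held no match to any of these motifs. Among 32851 promoter windows of the same length, 10.8% held the C/EBP site, 13.6% the TATA box and 8.3% the STAT site. No kappaB, interferon or SOX match lay in the windows of the 3 genes, which says only that these letters are not in this stretch. The kappaB consensus was in 4.51% of all windows, the interferon element in 3.44% and a SOX motif in 9.36%.

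Cfb (ENSMUSG00000090231, mm10 chr17:34856374-34862518, minus strand) encodes factor B, the protease of the alternative pathway. It had 2488, 2758 and 2790 normalized counts in SoxC_KO_TNF cells, against 1775, 1435 and 2166 in SoxC_KO cells. It had 2967, 2875 and 3262 in control_TNF cells, against 1477, 1435 and 1646 in control cells. Every TNF library was again above every library without TNF, and in control cells each replicate number gave nearly the same fold, 2.01, 2.0 and 1.98. In knockout cells the folds by number were 1.40, 1.92 and 1.29. The log2 change on the average was 0.80 (SE 0.13, 95% interval 0.52 to 1.08; limma adjusted p = 0.0104), higher in 6 of 6 same-numbered pairs. It stayed past the threshold when any 1 of the 12 libraries was left out, with limma adjusted p from 0.00323 to 0.0473. Without both libraries with liver transcripts it was 0.84, with a limma adjusted p of 0.0665 without the block and 0.00533 with it.

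Reads of Cfb and C2 cannot be fully assigned in this table. The 2 genes lie 85 bases apart on the same strand, and the annotation holds a read-through gene, Gm20547, that runs from C2 into Cfb and has no exon base of its own. Of its 3902 exon bases, 2246 lie in Cfb and 1656 in C2, which leaves 20.5% of the exon bases of Cfb and 57.2% of those of C2 to these genes alone. Gm20547 had 6379, 6233 and 5951 normalized counts in SoxC_KO_TNF cells, against 3650, 3212 and 5832 in SoxC_KO cells. It had 5870, 5719 and 6666 in control_TNF cells, against 2751, 3116 and 4326 in control cells. Like Cfb, it was higher in each TNF library than in any library without TNF of the same genotype. Of all genes tested, 6.43% were so in knockout and 4.6% in control cells. The average log2 change of Gm20547 was 0.73, with a limma adjusted p of 0.0753 without the block and 0.00349 with it. In knockout cells its number 3 pair rose only 1.02-fold. Of the sum of Cfb and Gm20547, 27.1% to 34.9% was counted as Cfb. For that sum, an alternative chosen after the values were seen, the average log2 change was 0.75 (SE 0.15, limma adjusted p = 0.0386 without the block and 0.00132 with it). The direction of Cfb was thus the same under both ways of counting, while its level was not fixed.

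C4b (ENSMUSG00000073418, mm10 chr17:34728380-34743882, minus strand) encodes C4, which C1s and MASP proteases cleave. It had 491, 516 and 339 normalized counts in SoxC_KO_TNF cells, against 778, 763 and 778 in SoxC_KO cells. It had 506, 640 and 379 in control_TNF cells, against 815, 772 and 470 in control cells. In knockout cells the groups did not overlap, as for 6.4% of all genes tested that were lower there, and C4b was the only member among them. In control cells they overlapped, because control replicate 3 was low, and 0 of 7 genes were lower without overlap there (background 4.11%). Within each replicate number C4b was lower with TNF in 6 of 6 pairs, as were 5.33% of all genes. Its log2 change on the average was -0.61 (SE 0.19, 95% interval -1.04 to -0.19), with a limma adjusted p of 0.244 without the block and 0.0121 with it. The summed level of the fibroblast markers was also lower with TNF in 6 of 6 same-numbered pairs, at 429000, 445000 and 187000 normalized counts in SoxC_KO_TNF cells, against 555000, 517000 and 381000 in SoxC_KO cells, and 386000, 441000 and 238000 in control_TNF cells, against 525000, 504000 and 268000 in control cells. That sum was lowest in the library numbered 3 of each group, and its part in the C4b values was not tested. The largest part of the sum was Col1a1, and the markers did not all move alike. Group means of Thy1, Prg4, Col1a1, Col1a2, Col3a1, Vim and Has2 were lower with TNF in both genotypes. Pdpn averaged 19490 in SoxC_KO_TNF cells, against 13500 in SoxC_KO cells, and 19290 in control_TNF cells, against 13380 in control cells. Cdh11 and Pdgfra had higher means with TNF in knockout cells, while in control cells Cdh11 barely moved and Pdgfra was lower. The near copy C4a averaged 12.1 normalized counts, and 8.26% of the windows of 150 bases, the read length, in C4b were found unchanged in C4a.

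C2 (ENSMUSG00000024371, mm10 chr17:34862604-34898265, minus strand) encodes the protease that joins C4 in the classical and lectin enzyme. It had 158, 254 and 226 normalized counts in SoxC_KO_TNF cells, against 201, 266 and 307 in SoxC_KO cells. It had 205, 247 and 232 in control_TNF cells, against 237, 207 and 172 in control cells. The groups overlapped in both genotypes. The log2 change on the average was -0.06 (SE 0.17, 95% interval -0.44 to 0.31), and these values rest on an estimated 61 to 156 read pairs per library. Zbtb12, on the other strand, shares 161 exon bases with C2, and the sources used here do not say whether counting used strand. Although C2 lies next to Cfb, it did not pass the test on which Cfb did, and the read-through touches both values.

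The proteases of the C1 complex sit together on chromosome 6, 6901 bases apart. C1ra (ENSMUSG00000055172, mm10 chr6:124512405-124523443, plus strand), the first to be activated, had 2744, 2703 and 2649 normalized counts in SoxC_KO_TNF cells, against 2355, 2377 and 3281 in SoxC_KO cells. It had 2437, 2533 and 2828 in control_TNF cells, against 2320, 2456 and 2490 in control cells. The groups overlapped, and the log2 change on the average was 0.07 (SE 0.12, 95% interval -0.20 to 0.33). The near copy C1rb averaged 9.43 normalized counts, and 26.3% of the windows of 150 bases in C1ra were found unchanged in C1rb.

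C1s1 (ENSMUSG00000038521, mm10 chr6:124530345-124542359, minus strand) encodes the protease that C1r activates. It had 9084, 7955 and 11024 normalized counts in SoxC_KO_TNF cells, against 6851, 6473 and 9023 in SoxC_KO cells. It had 7267, 8120 and 9767 in control_TNF cells, against 6483, 7115 and 8077 in control cells. Group ranges overlapped, yet within each replicate number C1s1 was higher with TNF, by 1.12 to 1.33 fold, in 6 of 6 pairs. The members higher in all 6 pairs were C3, Cfb and C1s1, where 4.91% of all genes tested were. The log2 change of C1s1 on the average was 0.27 (SE 0.14, 95% interval -0.04 to 0.58), with a limma adjusted p of 0.742, or 0.111 with the block. The near copy C1s2 averaged 12.4 normalized counts, and 2.86% of the windows of C1s1 were found unchanged in it.

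Serping1 (ENSMUSG00000023224, mm10 chr2:84765387-84775444, minus strand) encodes C1 inhibitor. It had 19799, 18776 and 14966 normalized counts in SoxC_KO_TNF cells, against 16730, 17647 and 22528 in SoxC_KO cells. It had 16947, 17974 and 17164 in control_TNF cells, against 17075, 18643 and 16235 in control cells. The groups overlapped throughout, and control_TNF and control cells had nearly the same mean, 17360 ± 541 and 17320 ± 1222 (SD, n = 3 each). The log2 change on the average was -0.04 (SE 0.12, 95% interval -0.30 to 0.22). In knockout cells the number 3 pair went against the others, with 0.664 of the level without TNF, where the pairs numbered 1 and 2 gave 1.18 and 1.06 fold.

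**Figure D2:**
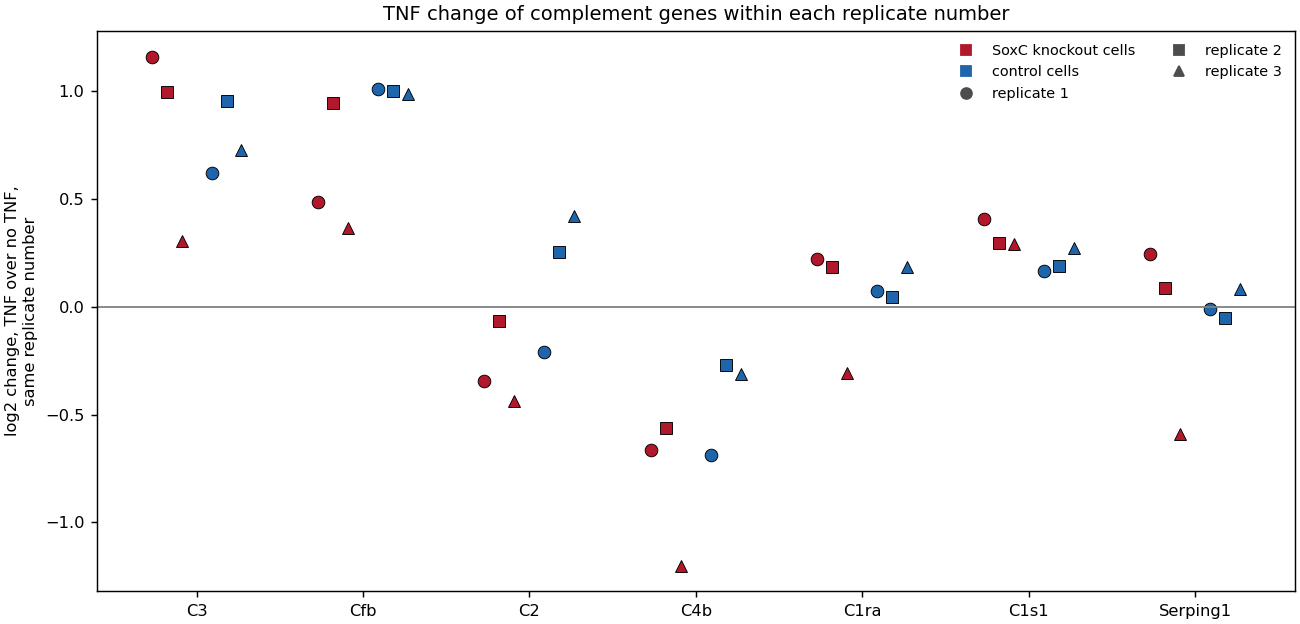
The log2 change of normalized counts (vertical axis), TNF over no TNF in the library of the same replicate number, for each of the 7 genes (horizontal axis), with knockout cells left of control cells. C3, Cfb and C1s1 lie above 0 in 6 of 6 pairs and C4b lies below 0 in 6 of 6, while C2, C1ra and Serping1 lie on both sides.

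Ratios within a library set pairs of these genes against each other without the scaling between libraries. They were chosen after the values were seen, so they carry no test. Per kb, the ratio of C3 to C4b was 29.7, 25.5 and 26.7 in SoxC_KO_TNF cells, against 8.42, 8.64 and 9.44 in SoxC_KO cells. It was 20.5, 22.6 and 22.3 in control_TNF cells, against 8.29, 9.67 and 10.9 in control cells. Every TNF library was thus well above every library without TNF, in each genotype. The 3 SoxC_KO_TNF libraries were also all above the 3 control_TNF libraries. Between these groups limma called neither C3 nor C4b (adjusted p = 0.997 for each), and it called neither on the difference of TNF changes. For this and the other ratios, the share of all gene pairs that separate groups in this way was not counted. The ratio of Cfb to C2 was 14.9 to 21.6 in SoxC_KO_TNF cells, against 7.39 to 12.1 in SoxC_KO cells, and 15.9 to 19.8 in control_TNF cells, against 8.54 to 13.1 in control cells. These values also depend on how reads shared with Gm20547 were assigned. The ratio of C1s1 to C1ra was 3.31 ± 0.60 in SoxC_KO_TNF cells, against 2.66 ± 0.095 in SoxC_KO cells, and 3.06 ± 0.23 in control_TNF cells, against 2.84 ± 0.22 in control cells (SD, n = 3 each). Its lowest SoxC_KO_TNF library, at 2.8, lay just above the highest SoxC_KO library, at 2.77, and the control groups overlapped. Of the other ratios computed, Cfb to C3 was 0.344 to 0.621 in SoxC_KO_TNF cells, against 0.439 to 0.595 in SoxC_KO cells. It was 0.401 to 0.777 in control_TNF cells, against 0.388 to 0.65 in control cells, so the groups overlapped in both genotypes. C3 to Serping1 did not overlap in either genotype, and C1s1 to Serping1 overlapped in control cells only.

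**Figure D3:**
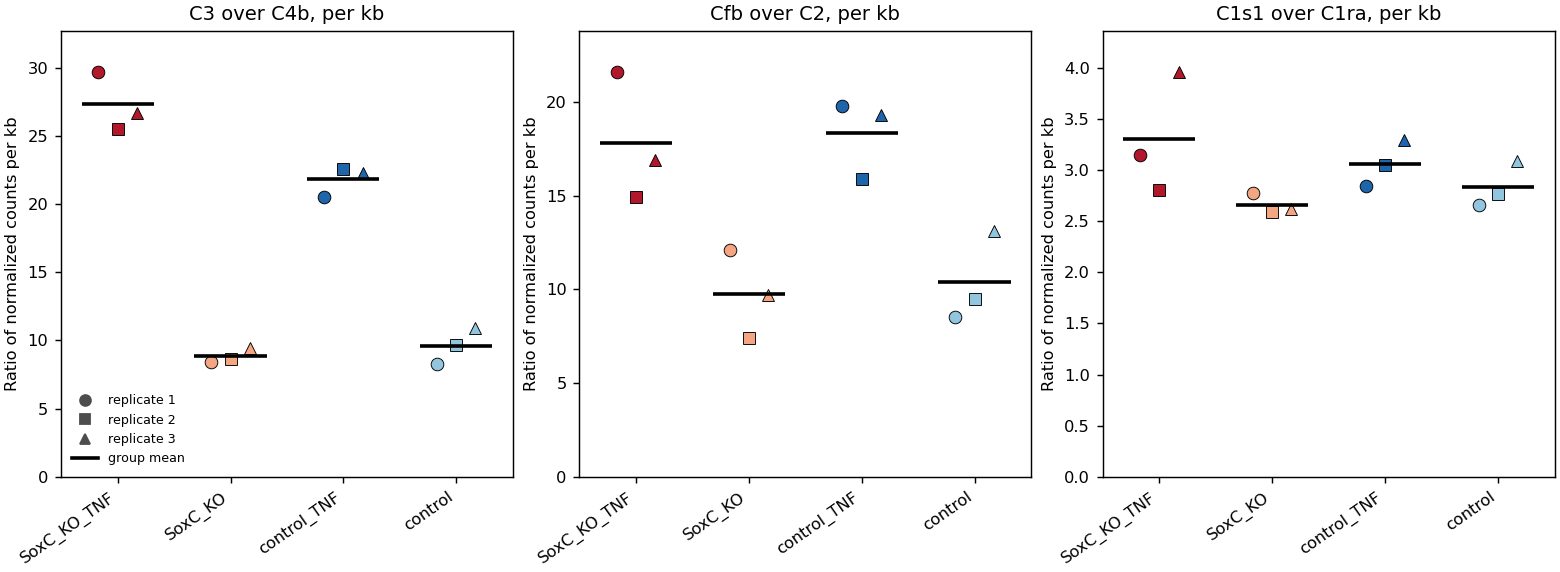
Ratios of normalized counts per kb (vertical axes, from 0) of C3 to C4b, Cfb to C2 and C1s1 to C1ra in each of 12 libraries, with group means as bars. The ratio of C3 to C4b is 20.5 or more in all TNF libraries and 10.9 or less in the others, and the ratio of C1s1 to C1ra overlaps between control_TNF and control cells.

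Loss of SoxC left all genes tested without a call, the 7 genes among them. Without TNF, limma called 0 of 7 genes between SoxC_KO and control cells (background 0%; 0 of 7 at an unadjusted p under 0.05, against 0.97% of all genes). With TNF it called 0 of 7 between SoxC_KO_TNF and control_TNF cells (background 0%; 0 of 7 unadjusted, against 1.28% of all genes). The replicate block gave 0 of 7 in both comparisons, and 0% of all genes. The log2 differences without TNF were 0.10 for C3, 0.22 for Cfb, 0.32 for C2, 0.21 for C4b, 0.12 for C1ra, 0.03 for C1s1 and 0.12 for Serping1, all above 0, where 48.7% of all genes tested were. Within number 3, all 7 were higher in SoxC_KO than in control cells, by 1.12 to 1.77 fold. Within the numbers 1 and 2, C3, C4b and Serping1 were slightly lower in SoxC_KO cells, while C1ra (1.02 and 0.968 fold) and C1s1 (1.06 and 0.91 fold) went both ways. With TNF the log2 differences were 0.15 for C3, -0.18 for Cfb, -0.12 for C2, -0.17 for C4b, 0.06 for C1ra, 0.16 for C1s1 and 0.03 for Serping1. Without TNF, 0 of 7 genes were higher or lower in the knockout without overlap of libraries, as 2.39% and 1.98% of all genes tested were. With TNF, 0 of 7 were higher (background 2.82%) and 1 of 7 was lower (background 2.34%), Cfb, with a limma adjusted p of 0.997. That separation depended on how reads were split with Gm20547: the sum of both spanned 8741 to 8991 normalized counts in SoxC_KO_TNF cells and 8594 to 9928 in control_TNF cells, so the groups overlapped. No member was higher or lower in the knockout in all 6 same-numbered pairs, where 0.651% and 0.855% of all genes were.

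The TNF changes in the 2 genotypes were compared by their difference, knockout minus control. Limma called 0 of 7 genes (background 0%) with and without the block. At an unadjusted p under 0.05 it gave 0 of 7 without the block, against 1.51% of all genes, and 0 of 7 with it, against 17.2% of all genes. The difference was 0.05 for C3 (95% interval -0.71 to 0.82), so that its interval still held TNF changes clearly larger and clearly smaller in the knockout. It was -0.40 for Cfb (-0.96 to 0.16; with the block -0.81 to 0.01), from log2 changes of 0.60 in knockout and 1.0 in control cells. C2 gave -0.44 (-1.19 to 0.32) and C4b -0.39 (-1.23 to 0.46), and C1ra, C1s1 and Serping1 lay between -0.09 and 0.12. These intervals do not show that the genotypes responded alike.

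**Figure D4:**
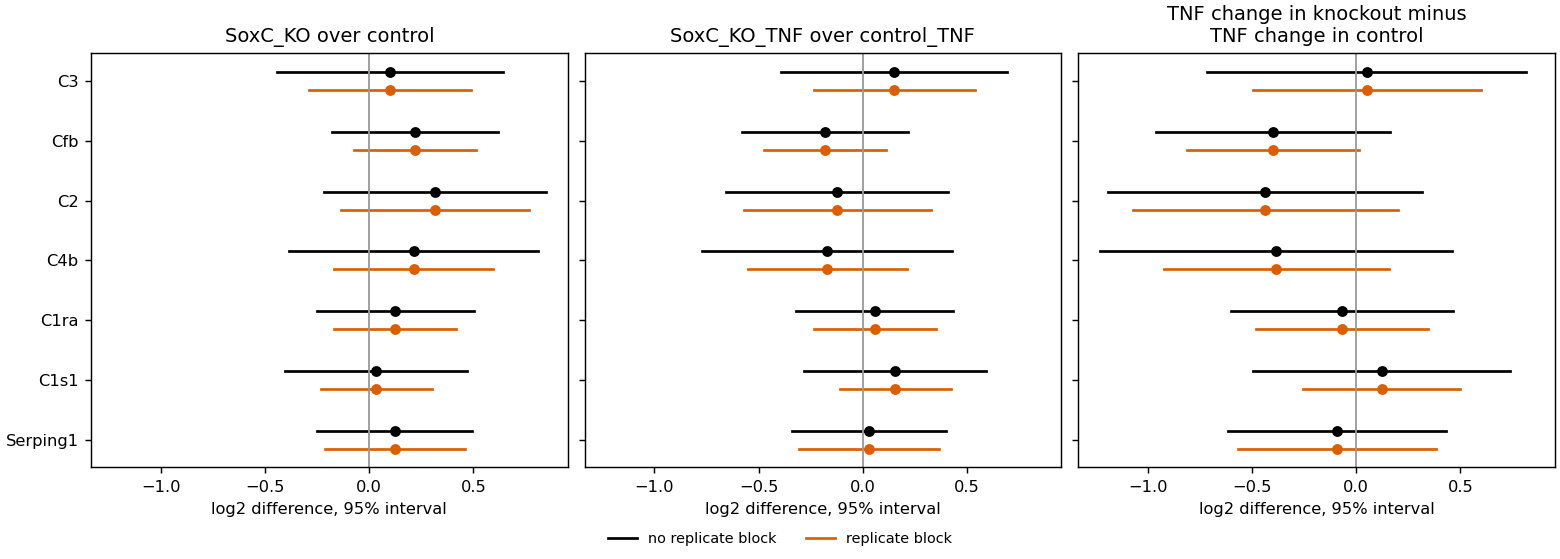
Log2 differences with 95% intervals (horizontal axes) for the 7 genes in SoxC_KO over control cells, SoxC_KO_TNF over control_TNF cells, and the TNF change in knockout minus that in control cells, from limma without and with the replicate block. Every interval crosses 0.

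The liver transcripts and the libraries numbered 3 moved with some of these values. The hepatocyte markers, 8 of 9 in the table, summed to 3.87 to 4170 normalized counts in SoxC_KO_TNF cells, 11 to 69.8 in SoxC_KO cells, 0 to 598 in control_TNF cells and 16.6 to 25.7 in control cells. Of the listed complement genes below the filter, C9, a subunit of the lytic complex, had 58.3 normalized counts in SoxC_KO_TNF replicate 1, against 1.94 or less elsewhere, and vitronectin (Vtn) had 112, against 15.8 or less. Others did not follow this: the lectin pathway protease gene Masp2 spanned 3.1 to 14.0 over all libraries, and Colec10, a lectin gene, was at 0 in that library, with 17.9 in SoxC_KO replicate 1. The share of C3 in those libraries that came with the liver transcripts was not tested. Macrophage markers, which include the C1q genes, summed to 1820 to 3490 in SoxC_KO_TNF cells, 1640 to 3990 in SoxC_KO cells, 1500 to 3990 in control_TNF cells and 1370 to 3440 in control cells, highest in the library numbered 3 of each group. The largest part of that sum was Lyz2. Lyz2, Csf1r, Cd14, Adgre1, Cd68 and C1qb were each highest in the library numbered 3 of each group, while Ptprc, C1qa and C1qc were not in every group. Without the 4 libraries numbered 3, limma without the block called C3 (log2 change 0.93, adjusted p = 0.00189), Cfb (0.86, adjusted p = 0.00152) and C4b (-0.55, adjusted p = 0.0264) on the average, where 3.8% of all genes were called.

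The rest of the complement system gave 1 further call. A list of 56 complement genes was in the table in full, of which 35 passed the filter, 28 of them besides the 7. Among these 28, limma called 0 as higher and 1 as lower on the average TNF effect, where 0.877% and 0.292% of all genes were called. The 1 was Masp1, a protease of the lectin pathway that acts upstream of C4 and C2. Masp1 had 1779, 1658 and 1519 normalized counts in SoxC_KO_TNF cells, against 2173, 2808 and 2268 in SoxC_KO cells. It had 1128, 1856 and 1473 in control_TNF cells, against 3169, 2992 and 2331 in control cells. The libraries did not overlap in either genotype, and Masp1 was lower in 6 of 6 pairs. Its log2 change on the average was -0.74 (SE 0.15, limma adjusted p = 0.0435; 0.0029 with the block). In control cells alone it was -0.95, past the threshold with the block only (limma adjusted p = 0.0130). On the average without the block it kept a limma adjusted p under 0.05 only when control replicate 3, control_TNF replicate 2 or SoxC_KO replicate 3 was the 1 library left out. Without the block it was 0.075 without the libraries with liver transcripts and 0.0791 with no filter on low values, both by limma.

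Apart from Masp1, several other complement genes were present without a call. By normalized count, not scaled by length, the other listed genes led with C1qbp, a mitochondrial protein that also binds C1q, at a mean of 2490 normalized counts, then Masp1, the membrane regulator Cr1l at 1455, the C1r-like protease gene C1rl at 966, the inhibitor of the lytic complex Cd59a at 792 and clusterin (Clu) at 525. Among soluble regulators, C4bp, the C4-binding protein gene, had an average log2 change of 1.51 (limma adjusted p = 0.121). C4bp had 30.6, 16.1 and 14.7 normalized counts in SoxC_KO_TNF cells, against 1.89, 7.89 and 5.37 in SoxC_KO cells, and 5.97, 19 and 10.5 in control_TNF cells, against 4.78, 3.32 and 5.23 in control cells. These are a few reads per library, and the highest C4bp values, 30.6 and 19, were in the libraries with liver transcripts, whose part was not tested. Of the 7 genes of the terminal, membrane-lysing steps, 2 passed the filter, Hc and C8g, and neither was called. C1qb and C1qc, the recognition subunits of C1, passed with group means of 8.12 to 17.6 and 6.97 to 11.4, while C1qa did not.

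**Figure D5:**
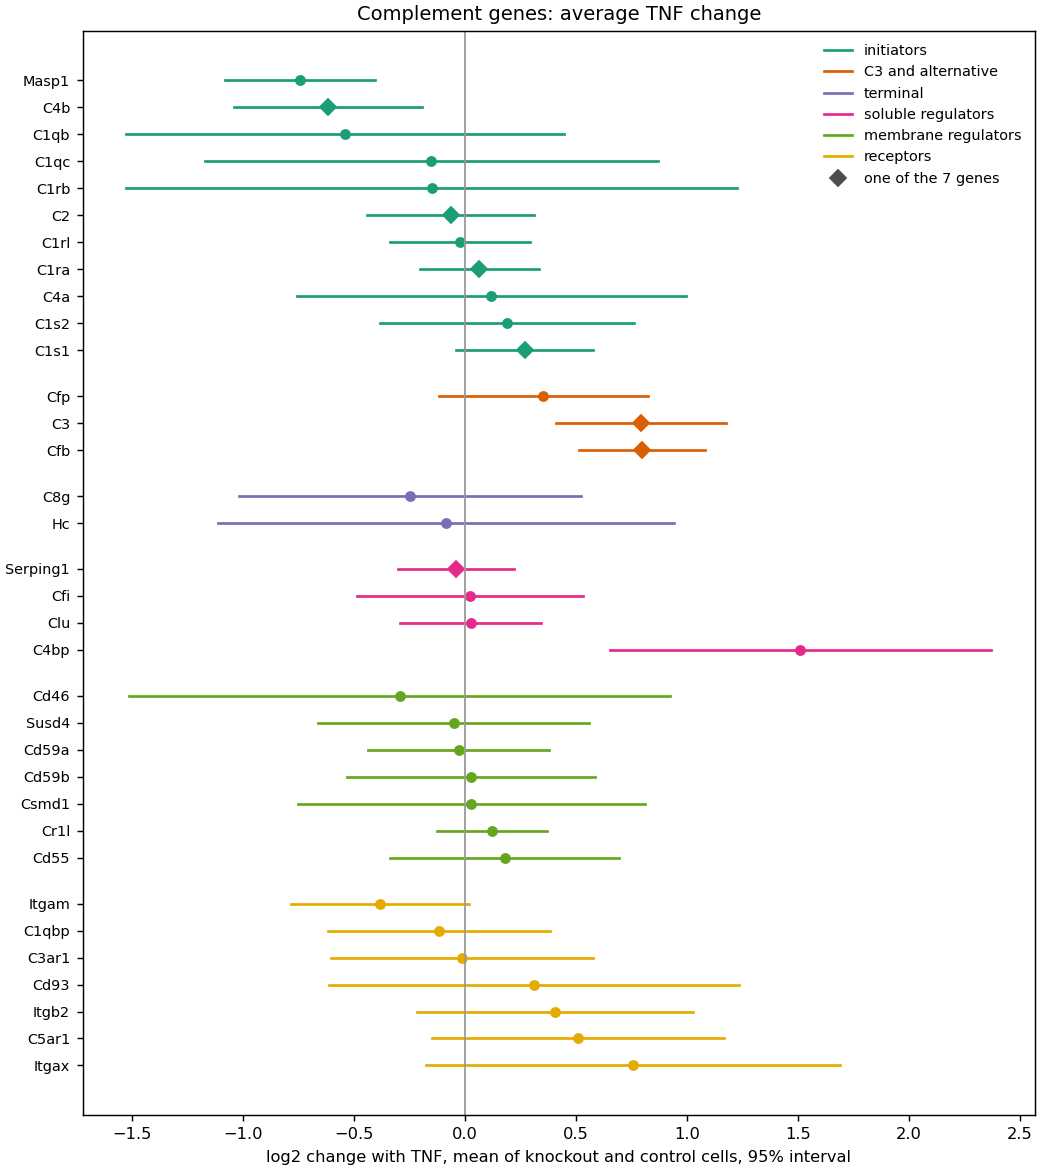
Average log2 change with TNF over knockout and control cells, with its 95% interval (horizontal axis), for complement genes above the filter, grouped by role, with the 7 genes as diamonds. C3 and Cfb lie near 0.8, Masp1 and C4b below -0.6, and C4bp has a wide interval at a low level.

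Genes with a pattern like that of C3 were named by the highest Pearson correlation over the 12 libraries among 11648 genes with a mean of at least 50, as a description of these libraries, which share 4 groups and their depth. For C3 these were Ext1 (r = 0.958), Itgb3 (0.956), Slco3a1 (0.952), Psd (0.951) and Plpp3 (0.949). For the mean of the 7 genes they were Itpkb (0.917), Fam102a (0.915), Fam219a (0.893), Rela (0.89) and C2cd2l (0.889).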

How the data were processed

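Poly(A) RNA of 12 libraries was sequenced as paired reads of 150 bases on a NovaSeq, per the labels' protocols. The deposited table holds log2 values of normalized counts, per the file headers. DESeq and the build mm10 are named in the submitters' processing notes, while the sources used here do not name the aligner, annotation or strand setting. The authors' log2 values carry no pseudocount, and 0 stands for values up to 1. They were raised to the power of 2, with 0 kept as 0.

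Titles gave the groups and the replicate numbers. Nothing in the labels ties replicates to different animals or cultures, and the p-values therefore reflect only how far these libraries differ, which can be technical. The low values of a library fell on whole or mid steps of its commonest low value in only 53.5% to 60.2% of cases (tolerance 0.01 step). Read counts could thus not be recovered, and no count model was fitted.

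Genes with 10 or more normalized counts in 3 or more libraries (18139) were fitted as log2(normalized count + 1), which understates changes of low genes, with limma 3.58.1 in R 4.3.3 (4 group means, intensity trend, Benjamini-Hochberg over all genes, threshold 0.05). The average TNF effect is the mean of the TNF changes of both genotypes. The fit was run on simulated data whose noise was set below the within-group spread seen here, with no shift of the libraries numbered 3. That run therefore does not check the calls made in these data. Alternatives were the replicate block, other pseudocounts, no filter, 1 total for all libraries, quantile normalisation, only the groups compared, and leaving out single libraries, those with liver transcripts or those numbered 3. Figures used Python 3.11.15 and matplotlib 3.10.9.

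The replicate numbers were read as pairs where each same-numbered pair of libraries, with group means removed, correlated above 0.1. This held for TNF in knockout cells (r = 0.34, 0.148 and 0.501), TNF in control cells (0.103, 0.55 and 0.715) and the knockout without TNF (0.457, 0.515 and 0.707), not for the knockout with TNF (0.0537, 0.189 and 0.526). The libraries numbered 3 stand apart in all groups, which can alone make such correlations positive. The block was fitted over all 4 groups, so it also enters the knockout with TNF, the interaction and the average. Same-numbered pairs of the knockout with TNF are likewise counted above, although they did not meet this rule. The value with the block is printed where it changes a call.

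The 7 genes, the wider list and the rules for naming genes were chosen with earlier results of these data known. Always named were the 7 genes and the near copies C4a, C1rb and C1s2. Of the wider list, genes called in any contrast and the 6 with the highest mean were named. For C3 and the mean of the 7, the 5 genes of highest correlation were named. Other names (Sox4, Sox11, Sox12, Alb, Gm20547, Zbtb12, C9, Vtn, Masp2, Colec10, C4bp, Hc, C8g, Cd55, the C1q genes, single fibroblast, macrophage and skeletal muscle markers and those most like Cfb and C4b) were added after values were seen. Exons came from GENCODE M21 and promoters from RefSeq, which held 3 of the 7 genes. Of the wider list, 1 gene enters the counts and is not reported here.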

Additional observations from a re-analysis of the deposited data

How the results depend on the processing

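With the replicate numbers as a block, the count of the 7 genes called by limma went to 3 for TNF in knockout cells (0 without the block), 1 for TNF in control cells (0 without) and 3 for the average TNF effect (1 without). The block changed no count for the knockout comparisons or the interaction, which were 0 of 7 in all settings run. Leaving out 1 library gave 0 to 0 calls for TNF in knockout cells, 0 to 1 in control cells (1, Cfb, without SoxC_KO replicate 3) and 1 to 2 on the average. Without the libraries numbered 3 the counts were 1, 1 and 3, in the order knockout, control, average, where 1.1%, 1.56% and 3.8% of all genes were called. Without the libraries with liver transcripts the average gave 0 (0.517% of all genes). With 1 normalized total for all libraries, control cells gave 1 (0.344% of all genes) and the average 2 (1.52%), and quantile normalisation gave 1 in control cells (0.314%). Settings that join the block with another change were chosen after the data were seen. Block without the liver libraries gave 0, 1 and 3 (0.832%, 0.905% and 3.06% of all genes), so the 3 calls in knockout cells were lost, and block without the libraries numbered 3 gave 1, 1 and 2 (0.761%, 0.949% and 2.99%). The block with 1 total gave 3, 2 and 3 (3.33%, 1.96% and 5.97%), as did the block with quantile values (3.21%, 1.88% and 5.57%). The block with Cfb and Gm20547 summed gave 2, 1 and 3 (2.76%, 1.7% and 5.18%).

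Of 1120 single values of the 7 genes under all alternatives, 0 reversed with a call, 1 lost its call (Cfb on the average without the liver libraries) and 41 gained one. Signs differed in 78, none of them called, the largest of size 0.198. Pseudocounts of 0.5 and 5 and no filter moved no count. The cause of these shifts was not tested. With 3 libraries a group, intervals are wide, and C2 and C4bp rest on few reads.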

Other observations

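Cfb and C4b had closer matches across the 12 libraries than C3 had, in values looked up after the report's rule and given as a description. For Cfb the highest Pearson correlations were with Slc15a3 (r = 0.985), Fam20c (0.984), Ccl3, a chemokine gene (0.977), Tnip1, whose product binds the TNF signalling inhibitor A20 (0.976), and Nfkbia, which encodes the NF-kappaB inhibitor IkB alpha (0.973). For C4b they were with Synpo (0.983), Tle3 (0.983), Plxnb2 (0.974), Ssc5d (0.973) and Lrrc32 (0.97). The points share the 4 groups, the libraries numbered 3 and the depth of each library.

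Cd55, a membrane protein that breaks up the C3-cleaving enzymes, was higher with TNF in 3 of 3 same-numbered knockout pairs (1.2, 1.24 and 2.65 fold) and lower in 3 of 3 control pairs (0.881, 0.919 and 0.66 of the level without TNF). The limma adjusted p of that difference was 0.884, or 0.284 with the block. Cd55 was picked after the values were seen, and the share of all genes with such opposite directions was not counted. The largest fold, 2.65, rests on the low value of SoxC_KO replicate 3, and the libraries numbered 3 stand apart. Cd55 had 604, 573 and 565 normalized counts in SoxC_KO_TNF cells, against 504, 462 and 212 in SoxC_KO cells, and 445, 527 and 280 in control_TNF cells, against 505, 574 and 425 in control cells.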
